A study of Mus musculus with 7 samples.

Results

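Pre-mRNA splicing factors form an unusual class among the genes of inherited retinal degeneration, because they are made in every cell and yet their mutations harm mainly the retina. The 9 genes described here are *Prpf3*, *Prpf4*, *Prpf6*, *Prpf8*, *Prpf31*, *Snrnp200*, *Rp9*, *Dhx38* and *Cwc27*, which were taken by symbol from the 52550 genes of the count table because their human counterparts are mutated in retinitis pigmentosa or a related retinal dystrophy. All 9 were found once and all 9 passed the filter on low counts. The level of these mRNAs was compared between WT retina (4 mice) and retina of SCA7 homozygous knock-in mice (3 mice), in total RNA-seq libraries that each hold both retinas of a single mouse. Every mouse was on the C57BL/6J strain and 12.5 weeks old. The knock-in mice, SCA7 140Q/140Q, carry an expanded CAG repeat in both copies of *Atxn7*, which encodes a subunit of the coactivator SAGA, so the mutant protein with about 140 glutamines is made from the gene's own promoter in every cell type that uses it, with no normal ATXN7 left.

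Introns are removed by the spliceosome, which is built for each intron from small nuclear ribonucleoprotein particles (snRNPs). The U4, U5 and U6 snRNPs enter together as the tri-snRNP, and the U4/U6 RNA duplex must then be unwound before the catalytic centre can form. Most splicing factors of retinitis pigmentosa belong to the tri-snRNP. PRPF8, SNRNP200 and PRPF6 are U5 proteins, and PRPF3, PRPF4 and PRPF31 are bound to U4/U6. DHX38 and CWC27 act in the activated spliceosome, and RP9 is a small nuclear protein that binds the kinase PIM1. Rod photoreceptors, the most abundant cells of the mouse retina, need very large amounts of a few mRNAs, and rods are lost first in retinitis pigmentosa.

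None of the 9 splicing factor genes changed past the thresholds used in the study, an adjusted p under 0.05 (edgeR quasi-likelihood test, Benjamini-Hochberg adjustment over the 20128 genes tested) with a fold change (FC, SCA7/WT) under 0.7 or above 1.3. An unadjusted p under 0.05 was reached by 3 of the 9, against 39.7% of all genes tested. Neither the DESeq2 Wald test nor limma-voom called any of the 9 by the rule on adjusted p and FC. Scaling by total counts alone called 1 higher, beside 3681 of the 20128 genes tested. With TMM, 7.91% of all genes tested were called lower and 7.47% higher by that rule. Without the FC threshold, *Prpf3* was lower and *Rp9* higher in SCA7, beside 14.2% of all genes lower and 14.2% higher. Their changes were small, a decrease of *Prpf3* to 0.824 times and an increase of *Rp9* to 1.15 times the WT level. The other 7 genes had fold changes between 0.961 and 1.13. Their median log2 fold change, over all 9, was 0.09, against -0.02 over all genes tested, where the quartiles lay at -0.26 and 0.17. Leaving out single libraries moved the median of the 9 from 0.05 (without WT replicate 3) to 0.14 (without WT replicate 4). The levels of all 9 genes in each mouse are shown in the plot of CPM, the counts scaled to library size with TMM factors.

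**Figure D1:**
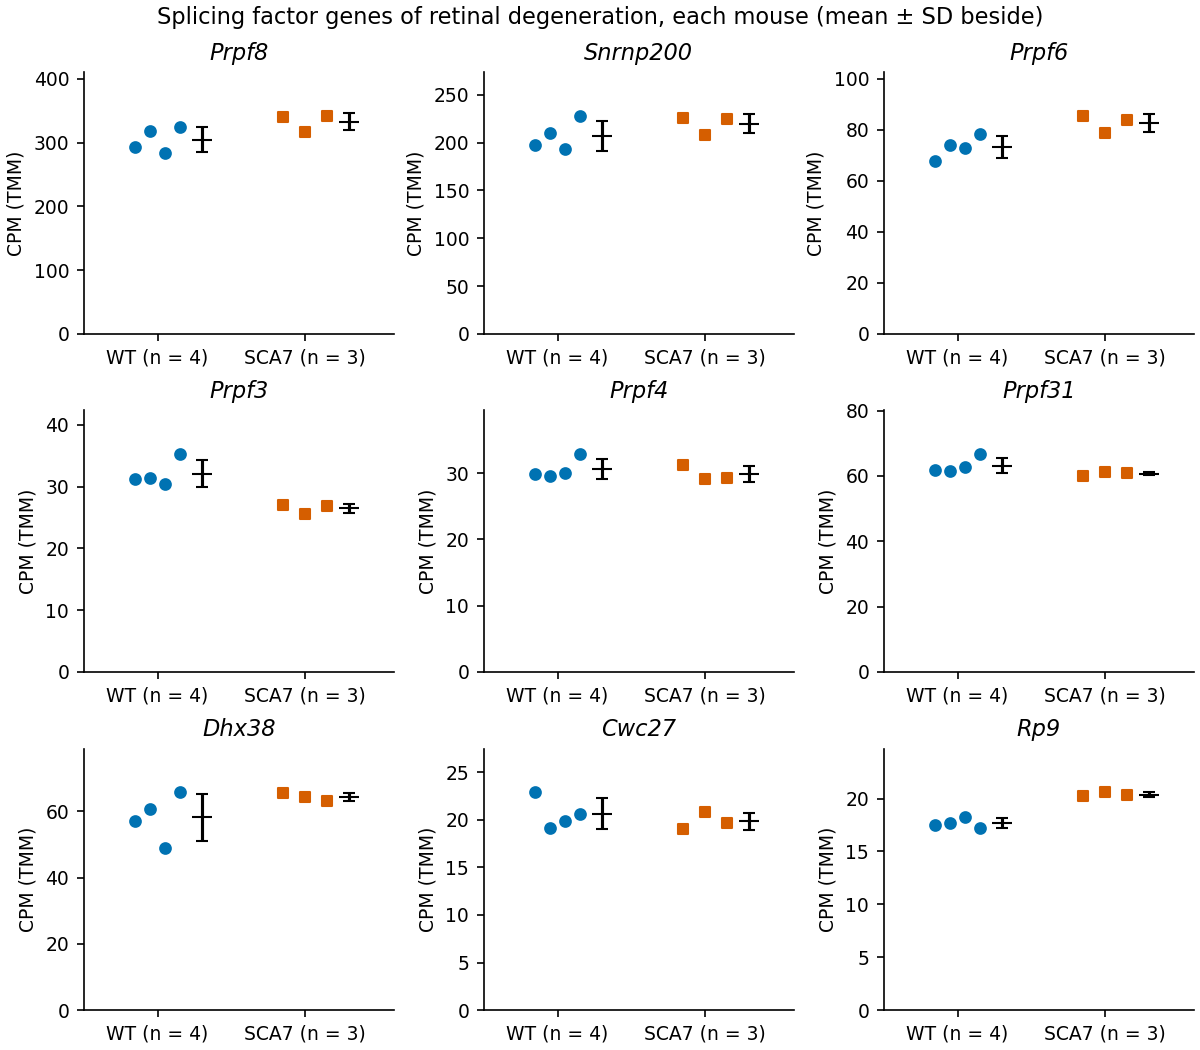
Level of each splicing factor gene in TMM-scaled CPM (vertical axes from 0) in each WT mouse (circles, n = 4) and each SCA7 mouse (squares, n = 3), with mean ± SD beside the points. The groups are apart for Prpf3 (30.5 to 35.3 CPM in WT, 25.6 to 27.0 CPM in SCA7) and for Rp9 (17.2 to 18.3 CPM and 20.2 to 20.6 CPM), and by a narrow gap for Prpf6 and Prpf31 (18.3% of all genes were apart as lower and 19.3% as higher), while Snrnp200, Prpf8, Prpf4, Dhx38 and Cwc27 overlap.

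The libraries held between 56497675 and 96635832 counts, and the 9 genes had between 975 and 35182 counts in a library. The coefficient of variation that counting alone gives was below the observed one for every gene in both genotypes, except *Rp9* (3.03% against 2.66% in WT, 2.49% against 0.993% in SCA7) and *Prpf31* in SCA7 (1.44% against 0.886%). *Atxn7* itself was at 39.2 ± 4.26 CPM in the 4 WT mice (SD) and at 37.6 ± 2.99 CPM in the 3 SCA7 mice, and a gene count cannot show the repeat. *Xist*, which marks female cells, was at 0.300 CPM or less in every library. Markers of the labelled tissue were present, with 10 rod genes summing to between 62300 and 64100 CPM in WT. In SCA7 the same 10 genes summed to between 16800 and 21700 CPM, and all 10 were called lower. Of the other marker lists, 9 of 10 cone genes were called lower and 1 higher, 5 of 11 genes of the retinal pigment epithelium and 2 of 10 bipolar cell genes lower, and 12 of 12 microglial, 8 of 10 reactive glial, 3 of 10 Müller glial and 2 of 10 endothelial genes higher. Genes of red blood cells, lens and the pigment epithelium varied within both genotypes, with lens sums between 48.9 and 1370 CPM. Pigment epithelium sums ran from 135 to 270 CPM in WT and from 33.4 to 77.6 CPM in SCA7, and 4 of its 11 genes were above 0. Of 5 red blood cell genes tested, 1 was called lower. In bulk retina, fewer cells of a type and less RNA per cell cannot be told apart, and the part of these shifts in the small changes of the splicing factor genes was not tested.

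The sequence before the starts is shown because several of these genes share their start region with a neighbour. Within 1000 bases upstream of their annotated start, 5 of the 9 genes have the start of another gene running the other way (55.6%), which is the case for 13.9% of the 15422 protein-coding genes tested. For 4 of the 9 genes (44.4%) the neighbour is protein-coding, against 9.03% of the 15422 genes. These shares were not counted for the other splicing genes. The neighbour of *Prpf3*, *Gm26594*, had at most 4 counts in a library. The gaps were 30 bases between *Dhx38* and *Txnl4b*, 55 bases between *Prpf31* and *Tfpt*, 80 bases between *Prpf3* and the lincRNA *Gm26594*, 105 bases between *Snrnp200* and *1810024B03Rik*, and 154 bases between *Prpf4* and *Cdc26*. The stretch between such a pair of starts, read toward the splicing factor gene, is printed below for 4 of them, followed by 160 bases before the start of *Prpf8*, which has no such neighbour. Sequences are from RefSeq (GRCm38.p6, the build of the files), without exons, and for *Prpf4* and *Prpf8* the RefSeq start lies upstream of the start in the annotation, which leaves 140 bases for *Prpf4*. They are chr7:3629930-3629984 (plus strand), chr3:95855886-95855965 (minus strand), chr2:127208281-127208385 (plus), chr4:62408643-62408782 (plus) and chr11:75486617-75486776 (plus). Capitals mark the letters CCGGAA (the core of sites for ETS factors), CCAAT (NF-Y), TGCGCA (NRF1) and TAATCC (the photoreceptor factor CRX) on either strand.
Prpf31: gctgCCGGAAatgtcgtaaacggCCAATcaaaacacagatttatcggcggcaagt
Prpf3: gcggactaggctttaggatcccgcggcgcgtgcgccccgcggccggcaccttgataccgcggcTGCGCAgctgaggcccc
Snrnp200: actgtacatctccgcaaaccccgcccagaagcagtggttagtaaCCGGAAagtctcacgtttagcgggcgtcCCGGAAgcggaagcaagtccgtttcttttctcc
Prpf4: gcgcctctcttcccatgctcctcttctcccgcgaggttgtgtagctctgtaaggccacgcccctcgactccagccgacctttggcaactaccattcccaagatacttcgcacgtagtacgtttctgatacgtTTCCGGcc
Prpf8: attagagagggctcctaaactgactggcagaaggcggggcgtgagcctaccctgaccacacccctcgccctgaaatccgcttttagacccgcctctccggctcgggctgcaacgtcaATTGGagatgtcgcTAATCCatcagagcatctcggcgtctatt

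Promoter sequence was at hand for 7 of the 9 genes, with *Rp9* and *Dhx38* as the others. The RefSeq start differs from the start in the annotation for *Prpf4*, *Prpf8*, *Cwc27* and *Prpf6*, and those of *Prpf6*, at 181601319, and *Cwc27*, at 104816953, lie inside the annotated genes. In the 250 bases before the start, CCGGAA was present in 4 of 7, against 35.9% of 103 other splicing genes and 12.3% of the 27025 genes with a sequence. CCAAT was present in 3 of 7 (34.5% of all), TGCGCA in 2 of 7 (16.5% of the other splicing genes, 6.67% of all) and TAATCC only in *Prpf8* (6.37%). The ratio of observed to expected CpG had a median of 0.991 in the 7 genes, 0.856 in the other splicing genes and 0.379 over all. For 17 other genes of retinitis pigmentosa, most of them used by photoreceptors alone, the median was 0.261, and TAATCC was present in 4. These are matches of letters, not sites shown to be bound, and nothing was measured there in these libraries.

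The U5 proteins include the most abundant mRNAs of the 9. *Prpf8*, whose product is the scaffold of the catalytic centre, lies on chromosome 11 from 75486816 to 75509449 of mm10 (ENSMUSG00000020850). Its level was 283, 293, 318 and 325 CPM in the WT mice and 317, 340 and 342 CPM in the SCA7 mice. The groups overlap, although 2 of the 3 SCA7 mice were above all WT mice. The log2 fold change was 0.13 (standard error 0.07, 95% interval -0.02 to 0.28, adjusted p = 0.19 by edgeR). Under scaling by total counts alone it was 0.32 (edgeR, adjusted p = 0.0086), in a fit where 36.2% of all genes passed as higher.

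*Snrnp200* (chromosome 2 from 127208386 to 127240451, ENSMUSG00000003660) encodes the helicase that unwinds U4/U6 and is held in check by PRPF8. It was at 193, 197, 210 and 228 CPM in WT and at 208, 225 and 226 CPM in SCA7. All SCA7 values fall inside the WT range, and the log2 fold change of 0.09 has a 95% interval from -0.07 to 0.24 (edgeR, adjusted p = 0.40). Scaling by total counts alone gave 0.27 (edgeR, adjusted p = 0.022), beside 36.2% of all genes higher in that fit. The level of *Snrnp200* relative to *Prpf8* within a library, per kb of exon, does not depend on the scaling between libraries. This ratio was 0.648 ± 0.0163 (SD, n = 4) in WT and 0.629 ± 0.00453 (SD, n = 3) in SCA7, with overlapping ranges.

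*Prpf6* (chromosome 2 from 181591868 to 181655660, ENSMUSG00000002455) encodes the protein that bridges U5 and U4/U6. WT mice had 67.9, 72.7, 74.1 and 78.3 CPM, and SCA7 mice had 78.5, 83.9 and 85.4 CPM. The groups do not overlap, but the lowest SCA7 value lies just above the highest WT value. The log2 fold change of 0.17 (standard error 0.06, 95% interval 0.04 to 0.31) did not pass the test over all genes (edgeR, adjusted p = 0.058). This gene sits at the threshold. DESeq2, the tool of the study, gave an adjusted p of 0.039 in its Wald test. The edgeR test gave 0.046 without the filter and 0.012 with a replicate block. Under total counts alone it gave 0.0018 (log2 fold change 0.36), beside 36.2% of all genes higher in that fit. The edgeR fits lacking any single mouse gave between 0.022 and 0.21.

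Among the U4/U6 proteins *Prpf3* was the exception. *Prpf3* (chromosome 3 from 95830124 to 95855885, ENSMUSG00000015748) had 30.5, 31.3, 31.4 and 35.3 CPM in WT and 25.6, 26.9 and 27.0 CPM in SCA7. The genotypes do not overlap, with all SCA7 values lower, as for 18.3% of all genes tested. The mean was 32.1 ± 2.15 CPM in WT (SD, n = 4) against 26.5 ± 0.792 CPM in SCA7 (SD, n = 3), and the log2 fold change -0.28 (standard error 0.07, 95% interval -0.42 to -0.13, adjusted p = 0.0083 by edgeR). The decrease is 17.6%, and the interval leaves out the fold change of 0.7 that the study required, with a lower bound at 0.745. Fits lacking any single mouse gave log2 fold changes from -0.30 to -0.23, with adjusted p between 0.0019 and 0.049. Scaling by total counts alone ended the call (-0.09, adjusted p = 0.38).

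PRPF3 works bound to PRPF4, a WD repeat protein, and the *Prpf4* mRNA did not follow. *Prpf4* (chromosome 4 from 62408797 to 62426990, ENSMUSG00000066148) was at 29.6, 29.9, 30.0 and 32.9 CPM in WT and at 29.2, 29.3 and 31.3 CPM in SCA7. The ranges overlap, and the log2 fold change was -0.03 (95% interval -0.17 to 0.10, edgeR adjusted p = 0.73). Per kb of exon, *Prpf3* stood at 1.05, 1.06, 1.02 and 1.07 times *Prpf4* in WT replicates 1 to 4 and at 0.864, 0.878 and 0.918 times *Prpf4* in SCA7 replicates 1 to 3. These within-library ratios, chosen after the values were seen and given without a test, separate the genotypes whatever the scaling between libraries.

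*Prpf31* (chromosome 7 from 3629985 to 3642486, ENSMUSG00000008373) encodes the protein that holds U4 and is needed to join U4/U6 with U5. The WT values were 61.5, 61.8, 62.6 and 66.7 CPM and the SCA7 values 60.1, 60.8 and 61.2 CPM. Although the groups do not overlap, the SCA7 values lie within 2.41 CPM, the SD of the WT mice, of the nearest WT mouse. The log2 fold change was -0.06 (standard error 0.05, 95% interval -0.17 to 0.06, edgeR adjusted p = 0.47). Relative to *Prpf31*, *Prpf4* was at 0.465 ± 0.00633 (SD, n = 4) in WT and 0.473 ± 0.0229 (SD, n = 3) in SCA7, and *Prpf3* at 0.488 ± 0.0165 and 0.419 ± 0.0158.

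The neighbours of *Prpf31* are of interest because its dose matters in human disease. *Tfpt*, which starts 55 bases away, had a log2 fold change of -0.02 (95% interval -0.18 to 0.14), and *Cnot3*, whose human counterpart is known to modify the expression of *PRPF31*, one of -0.16 (95% interval -0.44 to 0.13). Neither passed the test (edgeR, adjusted p = 0.88 and 0.40). The antisense transcript *Gm15927* shares 984 exon bases with *Prpf31*, but was low, between 0.398 and 0.894 CPM. The strand setting of the counting is not given in the sources used here, so reads in the shared bases cannot be told apart.

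The factors of the activated spliceosome did not pass the edgeR test with TMM and no covariates. *Dhx38* (chromosome 8 from 109548011 to 109565861, ENSMUSG00000037993), a DEAH-box ATPase that remodels the spliceosome between the catalytic steps, was at 49.1, 57.2, 60.7 and 65.8 CPM in WT and at 63.0, 64.3 and 65.6 CPM in SCA7. WT mice varied most in this gene, with a coefficient of variation of 12.1%, and the SCA7 values lie within the WT range. The log2 fold change was 0.14 (95% interval -0.04 to 0.33, edgeR adjusted p = 0.23). It was 0.07 without WT replicate 3 and 0.21 without WT replicate 4 (edgeR, adjusted p = 0.37 and 0.058). With a replicate block it passed the edgeR test (0.21, adjusted p = 0.0084). It also passed under total counts alone (0.33, adjusted p = 0.025), beside 36.2% of all genes higher in that fit. *Txnl4b*, which starts 30 bases from *Dhx38* on the other strand and encodes a protein related to the U5 protein TXNL4A, had 15.2 ± 0.796 CPM in WT (SD, n = 4) against 18.3 ± 0.805 CPM in SCA7 (SD, n = 3), with a log2 fold change of 0.27 (edgeR, adjusted p = 0.013).

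*Cwc27* (chromosome 13 from 104631140 to 104817142, ENSMUSG00000021715) encodes a protein of the cyclophilin family. It was at 19.1, 19.9, 20.6 and 22.9 CPM in WT and at 19.0, 19.7 and 20.8 CPM in SCA7, and the ranges overlap, with 1 WT mouse above all SCA7 mice. Its log2 fold change was -0.05 (95% interval -0.22 to 0.11, edgeR adjusted p = 0.62). It shares 152 exon bases with *Srek1ip1* on the other strand, which was higher in SCA7 with a log2 fold change of 0.24 (edgeR, adjusted p = 0.017).

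*Rp9* (chromosome 9 from 22411047 to 22469743, ENSMUSG00000032239) was the other gene that passed the test without the FC threshold. Levels were 17.2, 17.5, 17.7 and 18.3 CPM in WT and 20.2, 20.3 and 20.6 CPM in SCA7. The genotypes do not overlap, with all SCA7 values higher, as for 19.3% of all genes tested, and the WT spread was the smallest among the 9 genes, with a coefficient of variation of 2.66%. The log2 fold change was 0.20 (standard error 0.06, 95% interval 0.07 to 0.33, adjusted p = 0.024 by edgeR). Leaving out a mouse kept the log2 fold change between 0.19 and 0.22 but gave an adjusted p between 0.010 and 0.095, under 0.05 in 3 of 7 fits. *Rp9* shares 237 exon bases with *9530077C05Rik* on the other strand, which had a log2 fold change of 0.09 (edgeR, adjusted p = 0.36). *Pim1*, the kinase that RP9 binds, was between 4.22 and 6.56 CPM in all mice with a log2 fold change of -0.04 (95% interval -0.34 to 0.26).

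**Figure D2:**
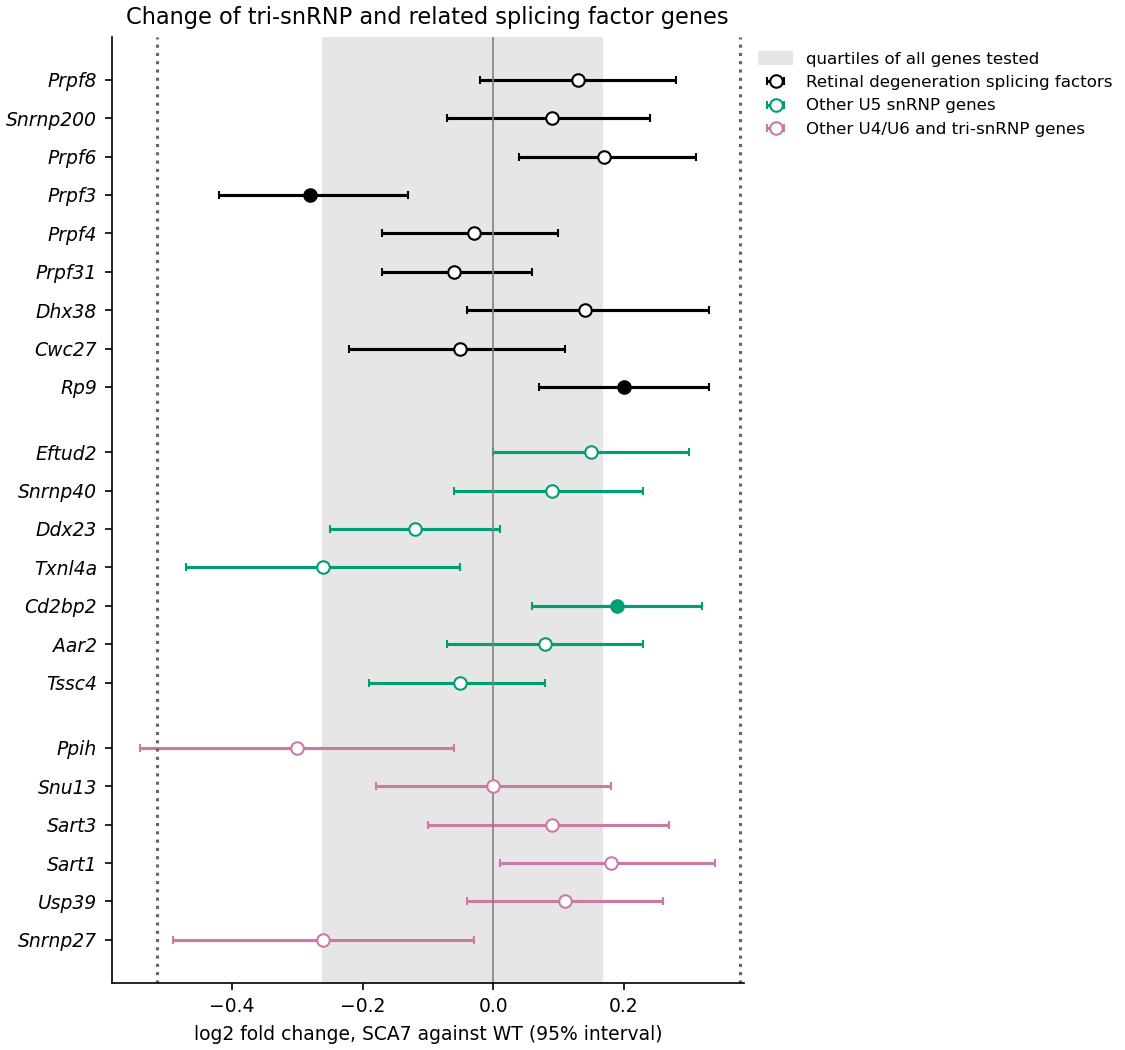
Log2 fold change (SCA7 against WT, horizontal axis) with 95% interval from the edgeR fit for the 9 splicing factor genes, the other U5 genes and the other U4/U6 and tri-snRNP genes. Filled points passed an adjusted p of 0.05, dotted lines mark FC 0.7 and 1.3, and the grey band spans the quartiles of all genes tested (-0.26 to 0.17). Filled points are Prpf3 (-0.28), Rp9 (0.20) and Cd2bp2 (0.19), and none lies beyond a dotted line.

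The 9 genes were set beside the other parts of the same particles. Of 7 further U5 genes, *Cd2bp2*, which encodes a factor bound to U5 before the tri-snRNP forms, rose with a log2 fold change of 0.19 (edgeR, adjusted p = 0.030), which is 14.3% of the list against 14.2% of all genes, and 3 of the 7 were below 0. *Eftud2*, the GTPase of U5, had a log2 fold change of 0.15 (adjusted p = 0.13), *Snrnp40* 0.09 (0.36), *Ddx23*, the helicase that acts on U1, -0.12 (0.15), *Txnl4a* -0.26 (0.062), *Aar2*, an assembly chaperone of PRPF8, 0.08 (0.44), and *Tssc4*, an assembly factor of U5, -0.05 (0.57). None of the 6 further U4/U6 and tri-snRNP genes passed the edgeR test (14.2% of all genes did in each direction), and 3 had an unadjusted p under 0.05, as did 39.7% of all genes. *Ppih*, a cyclophilin bound to PRPF3 and PRPF4, had the largest difference among them, with a log2 fold change of -0.30 (95% interval -0.54 to -0.06, adjusted p = 0.060) from 13.1, 14.7, 16.3 and 19.2 CPM in WT to 12.6, 12.7 and 13.1 CPM in SCA7. *Snrnp27* was at -0.26 (0.088), *Sart1* at 0.18 (0.10), *Usp39* at 0.11 (0.27), *Sart3*, which recycles U4/U6, at 0.09 (0.49), and *Snu13*, the protein to which PRPF31 binds on U4, at 0.00 (0.98).

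Over the 133 other splicing genes in 12 lists, all tested, the median log2 fold change was 0.00. The FC rule called 3 genes lower (2.26%, against 7.91% of all genes) and 0 higher (edgeR; against 7.47%), and at an adjusted p alone 7 genes were lower (5.26%) and 6 higher (4.51%), against 14.2% of all genes for each direction. The lower and higher counts were 3 and 66 under scaling by total counts alone (beside 7.43% and 36.2% of all genes in that fit). They were 23 and 10 without WT replicate 3 (16.7% and 17.5%), and 13 and 17 without WT replicate 4 (14.1% and 15.4%). Fewer passed without WT replicate 1 (5 and 3, beside 11.4% and 11.1%). So it was without SCA7 replicate 1 (5 and 3, beside 8.56% and 8.45%) or 2 (3 and 3, beside 9.63% and 9.84%). At an unadjusted p under 0.05 there were 22 lower and 20 higher of 133, against 20.2% and 19.5% of all genes, and neither the DESeq2 Wald test nor limma-voom called a gene higher by the FC rule. Scaling by total counts alone called 1 lower and 11 higher by that rule. In that fit the same rule called 978 lower and 3681 higher of all 20128 genes tested. The 3 of the 133 genes called lower with TMM were *Lsm2*, *Rnpc3* and *Pcbp4*. *Lsm2*, a subunit of the ring that binds the end of U6 RNA, was at 6.53, 7.56, 8.17 and 8.51 CPM in WT and at 4.63, 4.66 and 4.81 CPM in SCA7, a log2 fold change of -0.71 (standard error 0.10, edgeR adjusted p = 0.00037). The genotypes are clearly apart in *Lsm2*.

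*Rnpc3*, a protein of the minor spliceosome, was at 32.9, 36.0, 51.0 and 53.0 CPM in WT and at 25.2, 26.8 and 27.5 CPM in SCA7, and its log2 fold change was -0.71 (standard error 0.17, edgeR adjusted p = 0.019). WT mice fall apart in this gene, with replicates 1 and 4 high. *Pcbp4*, an RNA-binding protein, had 382 ± 43.9 CPM in WT (SD, n = 4) against 265 ± 17.0 CPM in SCA7 (SD, n = 3), with a log2 fold change of -0.53 (edgeR, adjusted p = 0.0012). *Lsm2* was called under every alternative run. The call of *Rnpc3* was lost under total counts alone (adjusted p = 0.052), without the filter (0.096), without WT replicate 4 (0.061) and without SCA7 replicate 1 (0.059), 2 (0.062) or 3 (0.059). *Pcbp4* lies at the FC threshold, with a fold change of 0.695, and lost its call under total counts alone (0.790), in the DESeq2 Wald test (0.701), without the filter (0.705), and without WT replicate 1 (0.704), WT replicate 2 (0.724) or SCA7 replicate 1 (0.719).

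By list, the SR proteins and their kinases, which choose splice sites, had a median of -0.15, with 16 of 17 genes below 0 (52.5% of all genes were) and 2 past the test (11.8%, against 14.2% of all genes), *Srsf1* (log2 fold change -0.21, adjusted p = 0.036) and *Srsf7* (-0.22, adjusted p = 0.049). Under scaling by total counts alone this median was 0.04, with 5 of 17 genes below 0, beside a median of 0.17 over all genes. Factors of the catalytic steps and of release had a median of 0.11, with 14 of 16 genes above 0 (47.5% of all genes were) and 1 past the test (6.25%, against 14.2%), *Prpf18* (0.27, adjusted p = 0.0035). In the PRP19 complex 2 of 17 genes passed as higher, *Prpf19* and *Crnkl1* (11.8%, against 14.2% of all genes). Of 18 genes of the U2 snRNP and branch site recognition none passed the edgeR test in either direction. An unadjusted p under 0.05 was reached by 4 of them, all higher (19.5% of all genes were), and the log2 fold changes lay between -0.11 and 0.25. This list holds *Sf3b3* and *Sf3b5*, whose products are also subunits of SAGA, the complex of ATXN7. *Sf3b3* was at 130 ± 4.86 CPM in WT (SD, n = 4) against 138 ± 5.55 CPM in SCA7 (SD, n = 3), and *Sf3b5* at 32.4 ± 3.91 and 30.8 ± 2.32 CPM, with 95% intervals of the log2 fold change from -0.04 to 0.22 and from -0.27 to 0.13. The Sm core had no gene past the edgeR test among 8 (2 at an unadjusted p under 0.05, as had 39.7% of all genes). The U1 list had 2 lower and 1 higher of 9, the LSm ring 1 lower of 7, and the minor spliceosome 1 lower and 1 higher of 8. The regulators of tissue splicing had 1 lower of 16, and for all these lists the share of all genes was 14.2% in each direction. Of the 4 partners and neighbours none passed and 1 had an unadjusted p under 0.05, *Scaf11* with a log2 fold change of 0.19 (edgeR, adjusted p = 0.072).

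**Figure D3:**
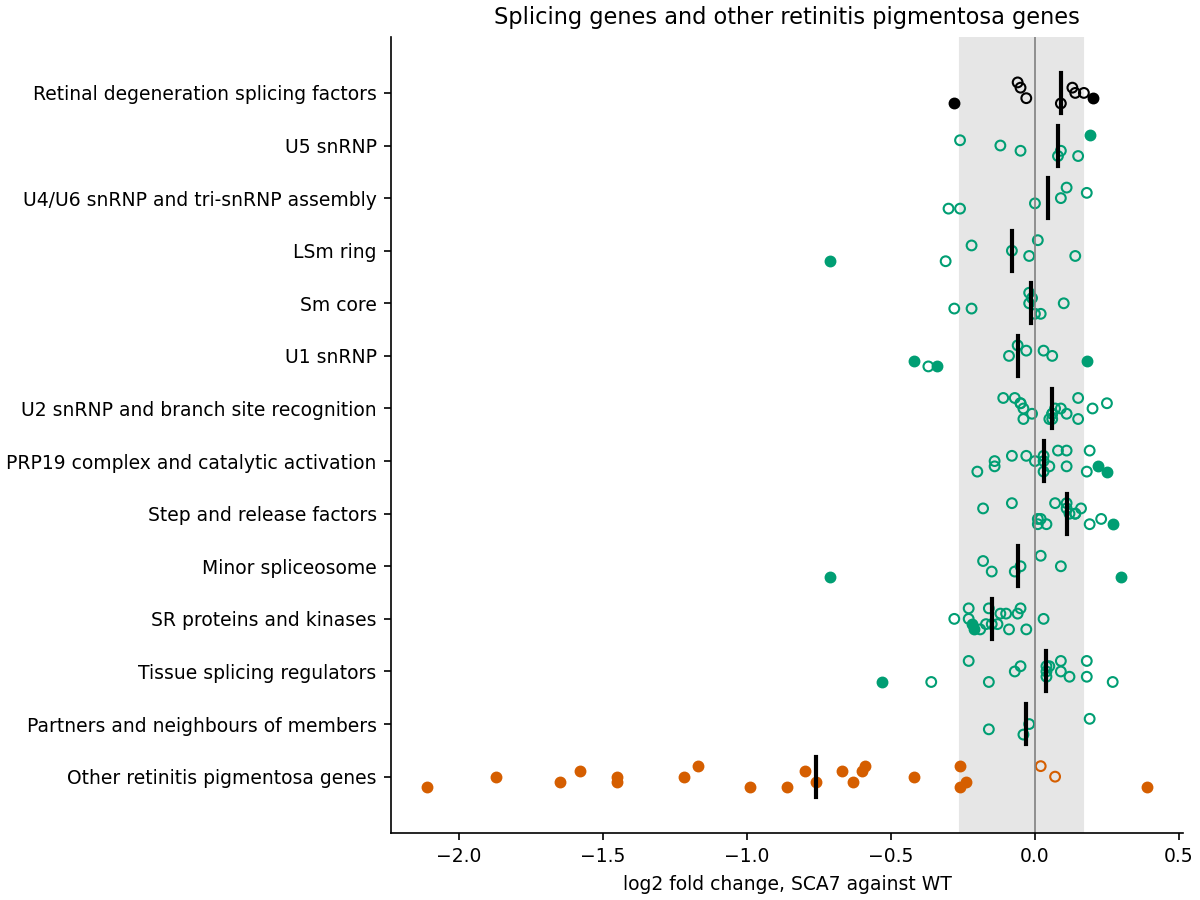
Log2 fold change (SCA7 against WT, horizontal axis) of each gene in the splicing lists and in the list of other retinitis pigmentosa genes, with a vertical bar at each list's median and the grey band at the quartiles of all genes tested. Filled points passed an adjusted p of 0.05 in the edgeR fit. The splicing lists have medians between -0.15 and 0.11 and the other retinitis pigmentosa genes a median of -0.76.

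The other genes of retinitis pigmentosa, most of them genes of the photoreceptor outer segment and its cilium, moved far more. Of 24 such genes 23 were tested, and 16 were called lower (69.6%, against 7.91% of all genes) and 1 higher (4.35%, against 7.47%), with a median log2 fold change of -0.76. *Reep6*, a membrane trafficking protein of rods, was among the genes that fell most (log2 fold change -1.87, edgeR adjusted p = 6.6e-07). The smallest changes were those of *Impg1*, a protein of the matrix around photoreceptors (0.02, adjusted p = 0.80), and *Rp2*, which acts in protein trafficking to the cilium (0.07, adjusted p = 0.48). The matrix gene *Impg2* was the one called higher, at 0.39 (edgeR, adjusted p = 0.0010). The lists were drawn up with earlier results of these libraries known, so this contrast is a description.

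Levels were compared between genes per length. In RPK, the unit of the study (counts over DESeq2 size factors and over the median transcript length in kb), *Snrnp200* was the highest in WT at 19500 ± 1520 (SD, n = 4), followed by *Prpf8* at 3960 ± 269. This order rests on the length used, because the median over annotated transcripts is 733 bases for *Snrnp200*, whose exons together cover 7819 bases. Over the union of exons *Prpf8* was first at 2820 ± 191 RPK, then *Snrnp200* at 1830 ± 142, *Prpf6* at 1310 ± 78.0, *Dhx38* at 809 ± 99.1, *Prpf31* at 801 ± 30.1, *Cwc27* at 495 ± 38.8, *Prpf3* at 392 ± 26.3, *Prpf4* at 373 ± 18.8 and *Rp9* at 342 ± 8.86. The ranges over WT mice overlap for *Dhx38* and *Prpf31* and for *Prpf3* and *Prpf4*, although *Prpf3* was above *Prpf4* within each WT library, while the other neighbours in this order have ranges that do not overlap. By this measure the 9 genes lie between the 53.6 and the 94.4 percentile of the 15422 protein-coding genes tested. The 23 other retinitis pigmentosa genes had a median of 11300 RPK per union of exons, against 801 for the 9 genes.

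**Figure D4:**
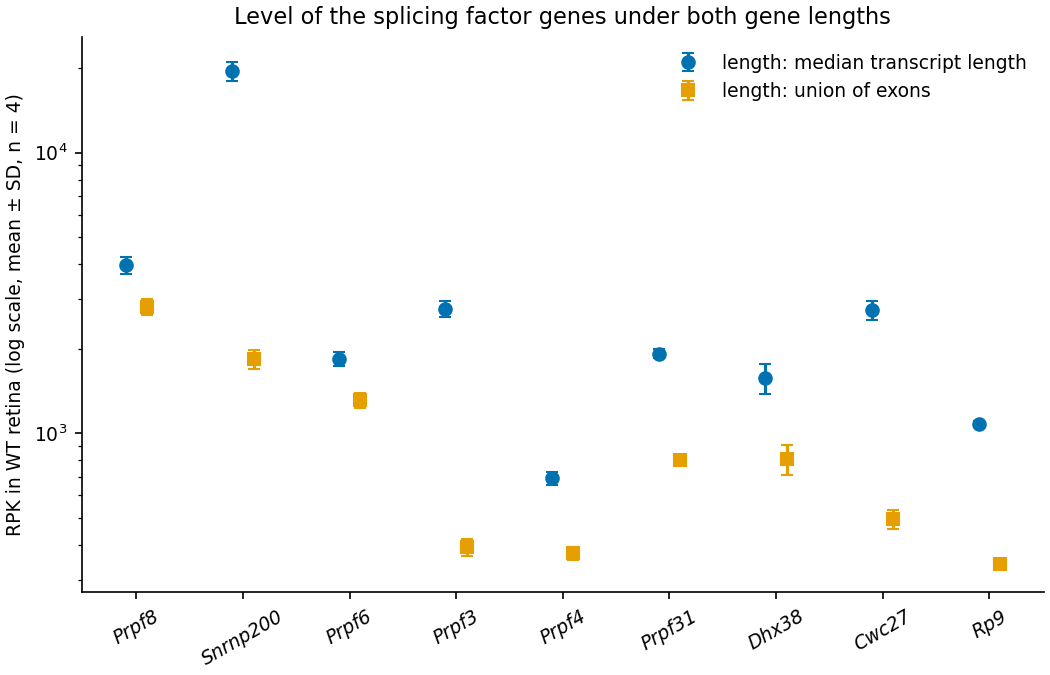
Level of each splicing factor gene in WT retina in RPK (logarithmic axis, mean ± SD over 4 mice), per median transcript length (circles) and per union of exons (squares). Snrnp200 falls from 19500 to 1830 RPK between the lengths, and Prpf8 and Prpf6 move least.

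Across the 7 libraries the median profile of the 9 genes, on log2 CPM centred for each gene, ran from -0.083 in WT replicate 1 to 0.103 in WT replicate 4, with the SCA7 libraries between 0.004 and 0.093. *Snrnp200* was the member nearest to it, at a root mean square distance of 0.0422, and *Prpf3* the farthest at 0.169. Of 9846 other protein-coding genes with at least 10 CPM, the 5 nearest were *Ddx42*, a helicase that works with the U2 snRNP (0.0262), *Prkd3* (0.0276), *Zfp882* (0.0277), *Dnajc5* (0.0281) and *Dtx1* (0.0289), all with log2 fold changes between 0.03 and 0.09.

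The scaling between libraries decides the sign of the smallest changes. Dividing by total counts alone, without TMM, moved the median of all genes from -0.02 to 0.17 on the log2 scale. With that scaling *Prpf3* was at -0.09 (edgeR, adjusted p = 0.38) and *Rp9* at 0.39 (adjusted p = 0.00038), 5 of the 9 genes passed as higher at an adjusted p alone (*Prpf6*, *Prpf8*, *Snrnp200*, *Rp9* and *Dhx38*), and *Prpf4*, *Prpf31* and *Cwc27* turned from below to above 0. The same scaling moved the count over all genes at an adjusted p alone from 2853 to 7296 higher, from 14.2% to 36.2% of all genes tested. Relative to the median of all genes, *Prpf3* stayed at -0.26 and *Rp9* at 0.22.

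**Figure D5:**
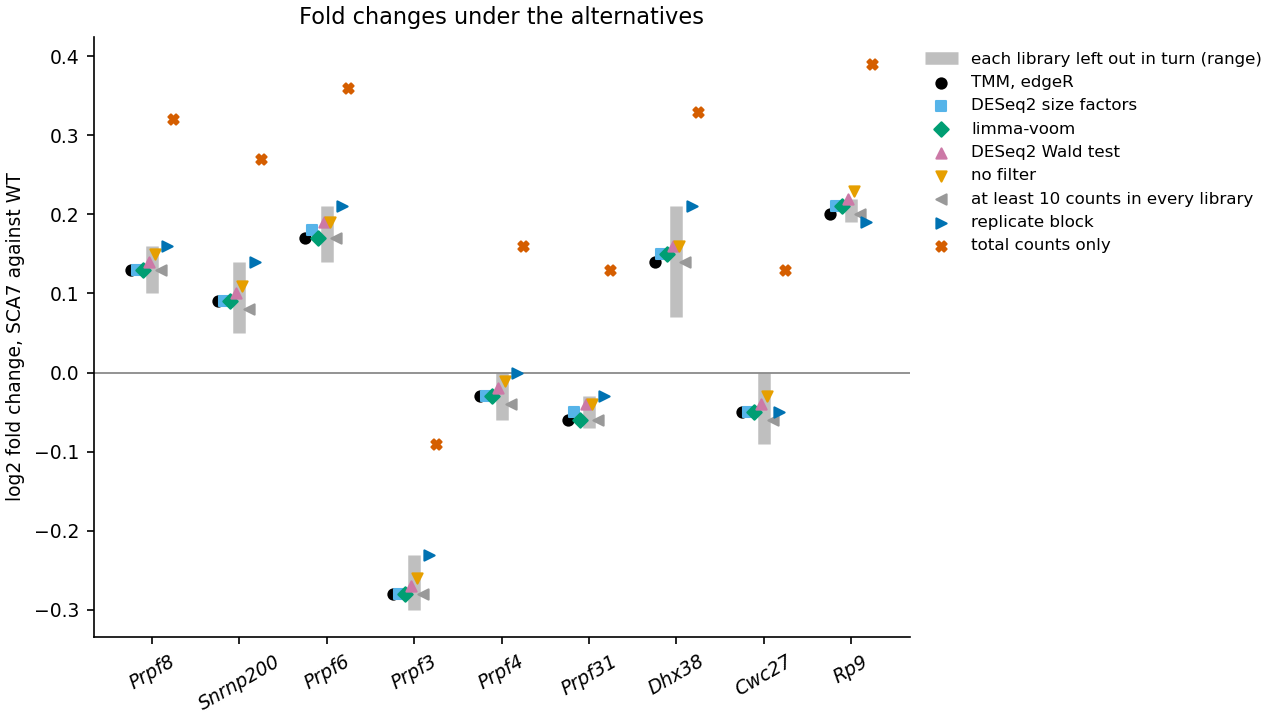
Log2 fold change (SCA7 against WT, vertical axis) of each splicing factor gene in the edgeR fit with TMM and under each alternative, with grey bars for the range when each library was left out in turn. Scaling by total counts alone moves all 9 genes upward, Prpf3 from -0.28 to -0.09 and Rp9 from 0.20 to 0.39.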

How the data were processed

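Stranded single-read libraries were made from mouse retinal total RNA after removal of ribosomal RNA, 1 per mouse (4 WT, 3 SCA7). The authors mapped reads to mm10 with Tophat 2.0.14 and bowtie2 2.1.0, counted them per Ensembl gene with HTSeq 0.6.1 and deposited raw counts, whole numbers without normalization. The HTSeq mode and strand option are not given in the sources used here. Library totals ran from 56497675 to 96635832, and the spread between mice holds more than counting error. Groups and replicate numbers come from the sample titles.

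Gene names, positions and lengths came from GENCODE M21 (GRCm38, the same assembly as mm10), which covered 52403 of 52550 genes. Genes were filtered with filterByExpr, scaled by TMM and compared with glmQLFit (robust) and glmQLFTest of edgeR 4.0.16 in R 4.3.3, without covariates. Standard errors were taken from the fold change and its F statistic. Alternatives were DESeq2 1.42.0 size factors, total counts alone, the DESeq2 Wald test, limma-voom (limma 3.58.1), no filter, a minimum of 10 counts per library, a replicate block, calls without the FC threshold, and leaving out single libraries. The fits across genes were tested on simulated counts. The DESeq2 Wald test exceeded the share of false calls first allowed there, and the limit was then raised for it alone. These counts were drawn from the means and dispersions of the edgeR fit, so they cannot rank the tests on the real data.

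All 9 members are named. Also named are other splicing genes called by the FC rule, other U5, U4/U6 and tri-snRNP genes, *Sf3b3*, *Sf3b5*, partners and neighbours, *Atxn7*, the 2 largest and 2 smallest changes among other retinitis pigmentosa genes (*Eys* had no match, and 1 of the largest is not reported here), and the 5 genes nearest in profile. *Impg2*, *Txnl4b*, *Srek1ip1*, overlapping genes and single genes past the test in other lists were named after their values were seen. The members and lists were chosen with earlier results of these data known.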

Additional observations from a re-analysis of the deposited data

Results flagged for a closer look

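WT replicate 4 stood apart from the other WT mice in *Prpf4*, at 32.9 CPM against 29.6 to 30.0 CPM. Its gap to the nearest mouse was 0.864 of the range of the 4 WT mice on the log2 scale. Chance alone marks about 1 in 20 groups in this way, and 9 genes were examined.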

How the results depend on the processing

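The *Prpf3* decrease passed an adjusted p of 0.05 under every alternative except total counts alone, and the *Rp9* increase under every one except the replicate block (log2 fold change 0.19, adjusted p = 0.052) and 4 of the 7 fits lacking a single mouse. The sample titles do not say whether same-numbered libraries are paired. Their deviations from the group means correlated at -0.0786, 0.486 and 0.0310, and so few libraries cannot decide it. With the replicate block, *Prpf6* and *Dhx38* passed the threshold (0.21, adjusted p = 0.012, and 0.21, adjusted p = 0.0084). *Prpf4* turned from -0.03 to 0.00 with the block, and ranged from -0.06 to 0.00 when single mice were left out, with 0.00 without WT replicate 4. Under total counts alone *Prpf4* was at 0.16, *Prpf31* at 0.13 and *Cwc27* at 0.13. That scaling called 1 of the 9 genes higher, 1 of the 133 other splicing genes lower and 11 higher, and 978 of all genes lower and 3681 higher, against 1592 and 1504 with TMM. Without the FC threshold 1 of the 9 genes was lower and 1 higher, 7 and 6 of the 133, and 2852 and 2853 of all genes. Without the filter 1 of the 133 was called lower. With the replicate block, an adjusted p alone gave 21 lower and 21 higher of the 133, beside 17.0% and 17.2% of all genes in that fit. Leaving out a mouse gave 1 to 3 of the 133 called lower, with 1 without SCA7 replicate 1. With the union of exons as length 8 of the 9 genes took another place in the order of RPK, and leaving out WT replicates gave from 0 to 2. The cause of these differences was not tested, apart from those the construction shows. For *Rp9* the spread between mice was no larger than counting error, and what sets its precision was not tested.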
